A study of Mus musculus with 10 samples.

Results

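Fcna and Cd5l encode 2 secreted proteins of innate recognition, and their log ratios on 10 spotted cDNA arrays of mouse macrophages are described here. The genes were chosen by name: they are the genes whose symbol is the only one given for a feature in the platform table. Each had 1 feature, so the values rest on 2 of the 7486 features with a single symbol and on 2 of 6795 named genes. Values from these arrays were known when the pair was proposed, and its working name calls it peritoneal. The comparisons of tumour with peritoneal cells are therefore given for both genes as a description, with no test.

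Every array compared RNA of one condition with RNA of another, one in each channel. The sources were adherent cells from the peritoneal exudate (PEC) and macrophages associated with an implanted tumour (TAM), both from C57/6N black mice at 8 weeks of age and kept in culture. They were left untreated or given lipopolysaccharide (LPS), a bacterial cell wall component, at 100 ng/mL for 4 hours. Cells for the TAM arrays were harvested 3 weeks after tumour implantation, and on the arrays that set TAM against PEC the labels give this time for both kinds of cell. The 4 direct comparisons were untreated TAM against untreated PEC on 4 arrays (TAM-b, TAM-3, TAM-8 and TAM-2R), LPS-treated TAM against LPS-treated PEC on 2 (TAM1 and TAM7), LPS-treated against untreated PEC on 2 (PEC1 and PEC2), and LPS-treated against untreated TAM on 2 (TAM-trial and TAM-16). The labels used here name neither the tumour nor the number of animals behind a sample, and nothing says that arrays of a comparison came from separate mice or cultures. The p-values below therefore measure only the spread between arrays, which may be technical.

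Ficolin A, the product of Fcna, is a soluble lectin with a collagen-like stem and a fibrinogen-like head that binds acetylated sugars on microbes. Through serine proteases that it carries into the plasma, among them the products of Masp1 and Masp2, it starts the lectin pathway of complement. Cd5l, also called AIM or Sp-alpha, is built of scavenger receptor cysteine-rich domains, circulates bound to pentameric IgM and slows the death of macrophages. Both genes are known as genes of tissue macrophages, including those of the peritoneum, and Cd5l is a known target of the liver X receptors.

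In the mouse assembly GRCm38.p6, RefSeq places Fcna on the minus strand of chromosome 2 (chr2:25624665-25635440) and Cd5l on the plus strand of chromosome 3 (chr3:87357881-87371074). The extent of the lncRNA gene Fcnaos (chr2:25609330-25631761) overlaps that of Fcna. Whether the spotted clone shares sequence with Fcnaos was not checked. If it does, a double-stranded cDNA spot cannot tell the RNA of both genes apart. The 250 bases before each start site, from the RefSeq promoter table, are shown because the 2 genes follow each other over these arrays and because both stretches hold GAGGAA, a core that the myeloid factor PU.1 binds. The Fcna stretch is chr2:25627975-25628224 (minus strand), inside the extent of the RefSeq gene, and the Cd5l stretch is chr3:87357631-87357880 (plus strand). Capitals mark GAGGAA or its complement TTCCTC.
Fcna: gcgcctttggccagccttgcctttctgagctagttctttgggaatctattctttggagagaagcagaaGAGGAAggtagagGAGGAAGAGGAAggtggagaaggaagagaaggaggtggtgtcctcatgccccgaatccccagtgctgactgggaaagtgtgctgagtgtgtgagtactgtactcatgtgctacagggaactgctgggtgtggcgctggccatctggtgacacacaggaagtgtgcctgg
Cd5l: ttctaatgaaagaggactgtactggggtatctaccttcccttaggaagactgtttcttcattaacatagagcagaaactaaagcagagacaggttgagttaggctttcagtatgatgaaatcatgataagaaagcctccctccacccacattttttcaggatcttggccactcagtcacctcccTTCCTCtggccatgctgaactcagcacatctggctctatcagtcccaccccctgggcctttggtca
Counted from the start site, the matches begin at bases -182, -169 and -163 of Fcna and at base -66 of Cd5l, where the match is on the other strand. GAGGAA occurs in 28.3% of 32851 windows of 300 bases in the same table (250 before to 50 after a start), and 4.82% hold at least 2 matches. The Fcna window holds 4, the fourth of them after the start, and that of Cd5l 1. GATAAG has 1 match in the Cd5l window (7.44% of windows). The nuclear receptor half-site AGGTCA (16.3% of windows), the AP-1 motif TGANTCA (7.81%) and a tandem motif of the interferon regulatory factors (3.44%) have no match in either window. Each motif was counted on both strands, whether or not it overlapped another, and the motifs were chosen after the sequences had been read; a match is a match of letters only.

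The values are the deposited log ratios, taken as log2 of channel 2 over channel 1, with TAM-2R and TAM1, whose samples were exchanged between channels, turned to the direction of the others. The log base and the dyes are not stated, so each direction below is likely rather than certain. Reading channel 2 over channel 1 rests on a list of 21 measured genes of the LPS response, of which 18 lay above 0 on PEC1 and 21 on PEC2. That list cannot orient the arrays that set TAM against PEC. Their direction, and the turning of TAM-2R and TAM1, rest on the channel labels and on the same reading. Array medians as deposited lay between -0.199 and 0.022, no value was missing among the 9596 features, and the correlation over all features between arrays of one comparison was low, from 0.039 to 0.33. Of 3 array prints named in the labels, v3p6 was used for 6 arrays, v9p2 for TAM-trial, TAM-8 and TAM7, and v1p1 for PEC1.

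Fcna was far lower in TAM than in PEC on every array that compared them. Its log2 ratio in untreated cells was -4.09 on TAM-b, -6.04 on TAM-2R, -5.94 on TAM-3 and -4.87 on TAM-8. The mean was -5.23 ± 0.93 (SD, n = 4), or 37.6-fold lower in TAM, the second lowest mean of the 8905 genes and unnamed features. Single arrays show the same place near the bottom: Fcna ranked 8 from the lowest on TAM-b, 12 on TAM-2R, 32 on TAM-3 and 5 on TAM-8. The 3 arrays of print v3p6 averaged -5.35 and the single array of print v9p2 gave -4.87.

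After LPS in both kinds of cell, Fcna was again far lower in TAM. Its log2 ratio was -5.06 on TAM1 and -4.93 on TAM7, a mean of -5.00 ± 0.10 (SD, n = 2), or 31.9-fold lower. TAM1 had its samples exchanged between the channels and TAM7 did not, and the prints differ (v3p6 and v9p2); both values lie within the range of the untreated arrays. The mean was the second lowest of 8905 here too. In RNA of bulk cultures, fewer cells of a type and less RNA per cell cannot be told apart, and this holds for every value of both genes.

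Cd5l was lower in TAM as well, but with a wider spread. In untreated cells its log2 ratio was -0.93 on TAM-b, -4.91 on TAM-2R, -5.05 on TAM-3 and -4.44 on TAM-8, so 3 arrays lie close together and TAM-b stands apart. The mean of all 4 was -3.83 ± 1.95 (SD, n = 4), or 14.2-fold lower, the sixth lowest of 8905. Without TAM-b it was -4.80 ± 0.32 (SD, n = 3), or 27.8-fold lower. Cd5l ranked 1524 from the lowest on TAM-b, against 42 on TAM-2R, 76 on TAM-3 and 6 on TAM-8. Fcna was also nearest to 0 on TAM-b, though still 8 from the lowest there; without that array its mean was -5.62 ± 0.65 (SD, n = 3).

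After LPS in both kinds of cell, Cd5l had a log2 ratio of -2.64 on TAM1 and -2.58 on TAM7. The mean of -2.61 ± 0.05 (SD, n = 2) is 6.11-fold lower in TAM and the 121st lowest of 8905. It is nearer to 0 than on TAM-2R, TAM-3 and TAM-8 and farther from 0 than on TAM-b. The log2 ratio of Fcna was below that of Cd5l on all 6 arrays that set TAM against PEC, with differences between -3.16 (TAM-b) and -0.44 (TAM-8).

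**Figure D1:**
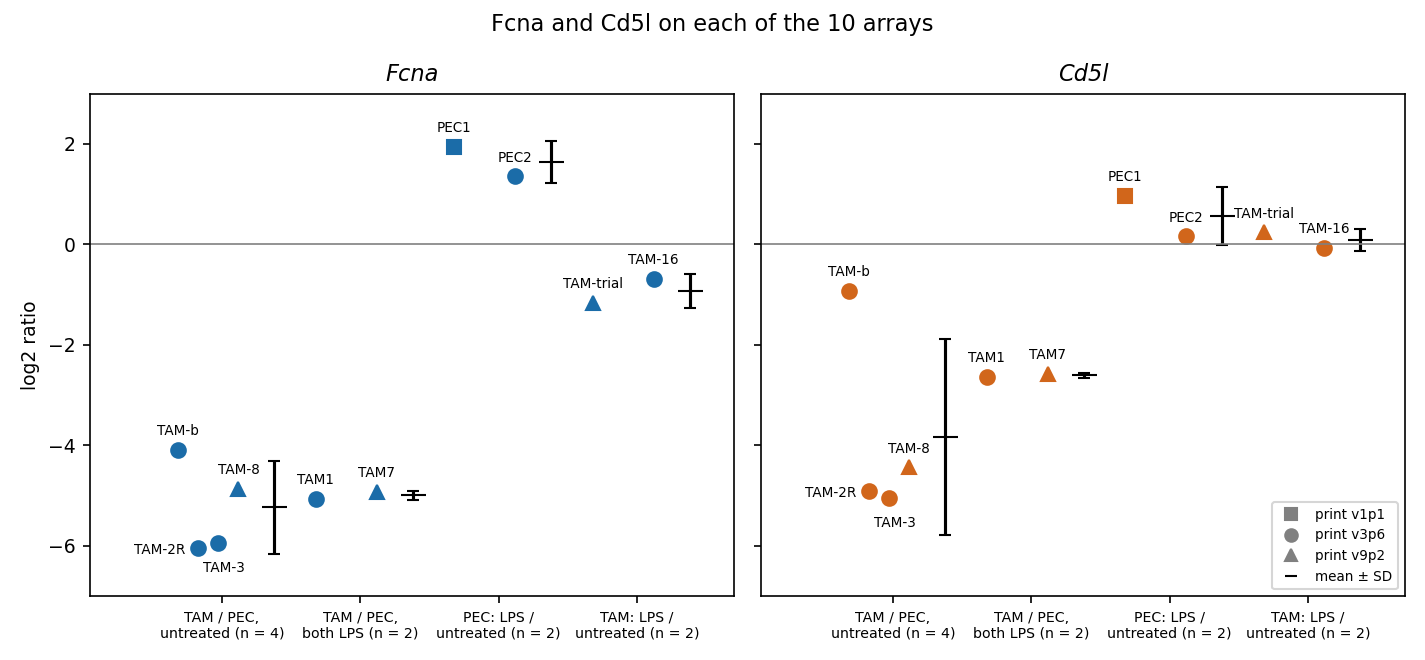
Log2 ratio of Fcna (left) and Cd5l (right) on each of the 10 arrays, by direct comparison; marker shapes give the array print, and bars the mean ± SD. Fcna lies between -6.04 and -4.09 on the 6 TAM against PEC arrays, while Cd5l on TAM-b (-0.93) stands apart from the other arrays of its comparison.

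The LPS comparisons hold no contrast of TAM with PEC, and the response of both genes was tested in them. Whether these arrays also played a part in choosing the pair is not stated; if they did, the p-values and intervals below are not free of that choice. In PEC, Fcna was higher with LPS on both arrays: its log2 ratio was 1.94 on PEC1 and 1.35 on PEC2. The mean of 1.65 ± 0.41 (SD, n = 2) is 3.13-fold higher, with a standard error of 0.52 and a 95% confidence interval of 0.49 to 2.80 in limma. The unadjusted p was 0.0102, and the adjusted p over all features 0.427, so Fcna did not pass the threshold of 0.05. The test called 1 of 8905 features in this comparison (0.0112%), and 725 had an unadjusted p under 0.05. That background count rests on single arrays: it was 85 without PEC1 and 48 without PEC2, 56 with a dye term per print and 28 in a loop fit. Without PEC1 the value of Fcna was 1.35, and without PEC2 1.94.

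In TAM, Fcna was lower with LPS on both arrays, at -1.17 on TAM-trial and -0.69 on TAM-16. The mean of -0.93 ± 0.34 (SD, n = 2) had a standard error of 0.52 and an interval of -2.09 to 0.23 (limma, unadjusted p = 0.104, adjusted p = 0.838). No feature passed in this comparison (0%), where 497 had an unadjusted p under 0.05; 3 passed without TAM-16. The 2 responses differed by -2.57 (TAM minus PEC; standard error 0.73, 95% interval -4.21 to -0.94), with an unadjusted p of 0.00579 and an adjusted p of 0.719 in limma. The difference called no feature either (0%; 612 at an unadjusted p under 0.05), but it called 47 without PEC1, 19 without PEC2, 1 without TAM-16 and 35 with a dye term per print. PEC arrays above 0 together with TAM arrays below 0, as for Fcna, were seen for 787 of 8905 features (8.84%).

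Cd5l showed no such split. In PEC its log2 ratio with LPS was 0.97 on PEC1 and 0.16 on PEC2, a mean of 0.56 ± 0.58 (SD, n = 2; limma interval -1.33 to 2.46, adjusted p = 0.977). In TAM it was 0.24 on TAM-trial and -0.07 on TAM-16, a mean of 0.08 ± 0.22 (SD, n = 2; interval -1.82 to 1.98, adjusted p = 0.993). The difference of the responses was -0.48, with an interval of -3.17 to 2.20 (limma, adjusted p = 0.998). These intervals span changes of more than 2-fold in both directions, so responses of that size were not excluded in this fit. Its error is pooled over all comparisons, including TAM-b, where Cd5l stood apart. Without TAM-b the means were unchanged and the standard error fell from 0.85 to 0.39 for each response. For the difference it fell from 1.2 to 0.56. None passed there either (limma, adjusted p = 0.824 in PEC, 0.978 in TAM and 0.969 for the difference). The width is therefore not set by the 2 arrays of a comparison alone. Fcna minus Cd5l was 0.97 and 1.20 on PEC1 and PEC2, and -1.41 and -0.62 on TAM-trial and TAM-16.

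The small TAM response of Fcna was matched by that of features at the same place in the feature numbering. The feature numbers run in groups of 96, and the 103 features at the place of Fcna within its group had medians of -1.16 on TAM-trial and -0.58 on TAM-16. Fcna itself read -1.17 and -0.69 there. With each place's median subtracted, an alternative chosen after the data had been seen, Fcna was at -0.01 on TAM-trial and -0.11 on TAM-16. On PEC1 and PEC2 it kept 1.81 and 1.66, and on the TAM against PEC arrays it lay between -6.08 and -3.92. For Cd5l the step that mattered was TAM-2R, where features at its place had a median of -1.83 and Cd5l moved from -4.91 to -3.08. Place accounted for 4.39% (TAM1) to 49.1% (TAM-b) of the variance of an array. On TAM-b, where Cd5l stood apart, its value was -0.93 as deposited and -0.56 with place removed. The part of place in these results was not otherwise tested.

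**Figure D2:**
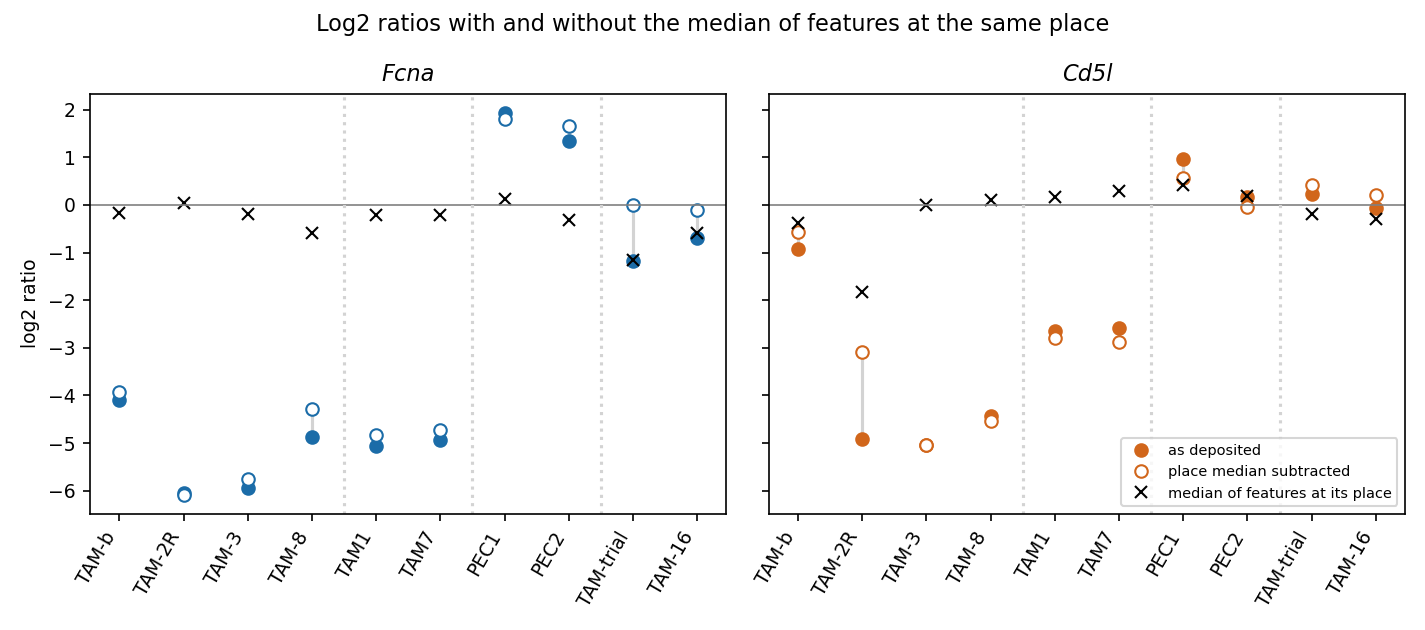
Log2 ratio of Fcna (left) and Cd5l (right) on each array as deposited (filled) and after the median of the 103 features at the same place was subtracted (open); crosses give that median, and dotted lines part the 4 comparisons. Fcna on TAM-trial and TAM-16 lies on or near its crosses, and the largest step between filled and open points is that of Cd5l on TAM-2R (-4.91 to -3.08).

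The 4 comparisons form a loop, so the ratio of LPS-treated TAM to LPS-treated PEC can also be had indirectly, from untreated TAM against PEC plus the TAM response minus the PEC response. For Fcna the indirect value was -7.81 against -5.00 measured directly, a gap of 2.81, and 4.2% of features had a larger gap (median gap over all features 0.76). For Cd5l the indirect value was -4.31 against -2.61, a gap of 1.70, which 15.9% of features exceeded. The gap remained on print v3p6 alone, where direct and indirect values were -5.06 and -7.40 for Fcna and -2.64 and -3.86 for Cd5l. Both routes put TAM below PEC, and they differ in size: 31.9-fold or 224-fold for Fcna, and 6.11-fold or 19.9-fold for Cd5l.

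A fit of all 10 arrays as one loop gives an order of the 4 conditions relative to untreated PEC. For Fcna the order from the highest was LPS-treated PEC (0.84), untreated PEC (0), untreated TAM (-4.83) and LPS-treated TAM (-4.96). For Cd5l the order was LPS-treated PEC (0.08), untreated PEC (0), LPS-treated TAM (-3.02) and untreated TAM (-3.59). For both genes the neighbours within a kind of cell did not pass the test on their direct arrays, given above; the loop values draw also on the TAM against PEC arrays and are given with no test. In this fit the PEC response of Fcna, 0.84, was smaller than the 1.65 of the direct arrays. Ratios carry no absolute level, so whether TAM held any transcript of either gene cannot be read from these arrays.

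**Figure D3:**
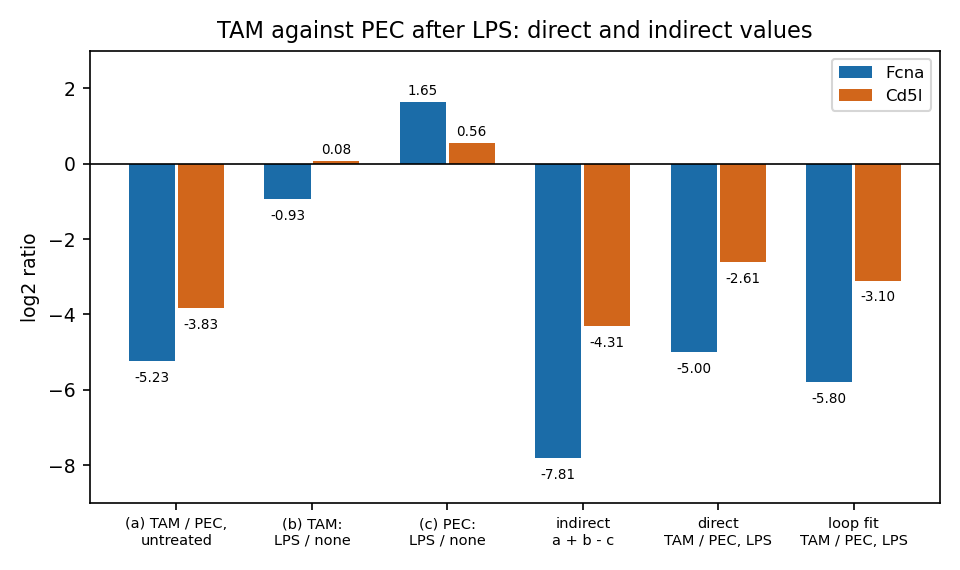
Mean log2 ratios of Fcna and Cd5l: the 3 direct comparisons that make up the indirect value (a, b and c), the indirect and direct values of LPS-treated TAM against LPS-treated PEC, and the value of the loop fit. The indirect bars (-7.81 and -4.31) lie below the direct ones (-5.00 and -2.61) for both genes.

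Genes that work with ficolin A or that resemble Cd5l were taken from 5 lists, of which 65 of 122 genes were measured besides the pair. In untreated TAM against PEC, limma called 41 of 8905 features (0.46%), 11 of them higher (0.124%) and 30 lower (0.337%). The 41 calls dropped to between 6 (without TAM-8) and 24 when any 1 of the 10 arrays was left out. Of the lists, 2 genes passed, both higher in TAM: C1qa and Axl. Neither call held when any 1 of the 10 arrays was left out (lowest adjusted p 0.0644 for C1qa and 0.0637 for Axl), and of 12 other alternatives C1qa passed in 4 and Axl in 2. In each of the other comparisons, and in the difference of the LPS responses, no listed gene passed; LPS-treated TAM against LPS-treated PEC had 6 calls in all (0.0674%), 1 higher (0.0112%) and 5 lower (0.0561%), and between 3 and 11 when an array was left out.

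In the lectin pathway none of 17 measured genes passed in untreated TAM against PEC, and their median log2 ratio was -0.20 (range -1.70 to 0.70), against -0.02 over all features. The proteases that ficolins carry gave 0.70 ± 1.52 for Masp1 and -0.67 ± 1.06 for Masp2 (SD, n = 4). The mannose-binding lectins, which start the same pathway from other sugars, gave -0.27 ± 0.71 for Mbl1 and 0.00 ± 0.64 for Mbl2 (SD, n = 4). All 4 spreads include 0, while the 4 Fcna values do not come above -4.09. Fcnb, the other mouse ficolin, had no feature under its own symbol.

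C1q starts the classical pathway from bound antibody and, like ficolin A, has a collagen-like stem. It lay on the other side of 0: C1qa was 2.12 ± 0.42 in untreated TAM against PEC (SD, n = 4; limma, adjusted p = 0.0412), C1qb 1.15 ± 0.22 (adjusted p = 0.194) and C1qc 1.58 ± 0.32 (adjusted p = 0.0853). In PEC with LPS the chains had means of 1.68, 1.75 and 1.5, near the 1.65 of Fcna, and none passed (limma, adjusted p from 0.406 to 0.427). In TAM with LPS they were 0.19, -0.84 and -0.58, so C1qb and C1qc, like Fcna, lay above 0 on both PEC arrays and below 0 on both TAM arrays.

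Of 12 measured genes of the scavenger receptor cysteine-rich family none passed in untreated TAM against PEC, and the median was 0.02 (range -1.25 to 1.14). The closest to Cd5l in name and structure, the lymphocyte receptors Cd5 and Cd6, gave -0.03 ± 1.34 and 0.43 ± 1.61 (SD, n = 4). Marco, a bacterial scavenger receptor of macrophages, gave -1.25 ± 1.38 (limma, adjusted p = 0.288) and, after LPS in both, -1.76 ± 0.19 (SD, n = 2; adjusted p = 0.464). Cd163, the haemoglobin scavenger receptor, gave -0.67 ± 1.07, and the secreted Lgals3bp 1.14 ± 0.74 (SD, n = 4; limma, adjusted p = 0.221). No measured gene of the family had a mean as low as that of Cd5l.

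Of 20 other recognition molecules 1 passed, the receptor kinase Axl, which binds dying cells through Gas6 (2.18 ± 0.83, SD, n = 4; limma, adjusted p = 0.0451); the median was -0.03. Mfge8, a secreted bridge to dying cells, had the lowest mean of that list, -2.68 ± 0.86 (SD, n = 4; limma, adjusted p = 0.0595). Among 12 measured regulators and partners of Cd5l none passed, and the median was -0.08. The liver X receptor gene Nr1h3 gave -0.31 ± 0.66, and its targets Abca1 -0.34 ± 0.21 and Abcg1 0.77 ± 0.57 (SD, n = 4; limma, adjusted p = 0.653, 0.58 and 0.341). Jchain, which joins the IgM pentamer, gave -0.45 ± 0.50 (SD, n = 4; adjusted p = 0.523). Nr1h2, Ighm and Msr1 had no feature under a single symbol.

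**Figure D4:**
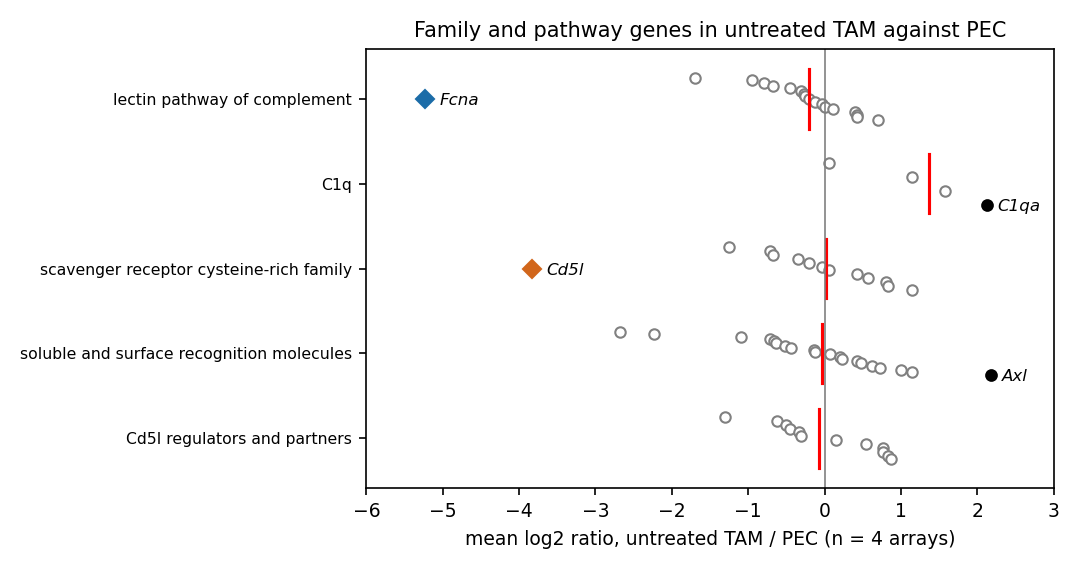
Mean log2 ratio in untreated TAM against PEC (n = 4 arrays) of the measured genes of 5 lists, with red bars at each list's median; filled circles passed the test at an adjusted p under 0.05 (C1qa and Axl), and diamonds mark Fcna and Cd5l, which were not tested here. Both diamonds lie left of every other gene of their families.

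The cell types behind the samples were checked with marker lists, as ratios only. Of 18 measured markers of resident peritoneal macrophages 12 lay below 0 and 6 above in untreated TAM against PEC (median -0.44, highest 2.66). Past the test 3 fell (limma, adjusted p = 0.00042, 0.0122 and 0.0332), beside 0.337% of all features. They were the acute-phase protein gene Saa3 (-6.61), the protease inhibitor gene Slpi (-4.31) and the lipid carrier gene Fabp4 (-3.34). The list was chosen with earlier results of these data known, so its share past the test is no separate evidence of cell type. Saa3 and Slpi also had means above 0 with LPS in PEC (2.85 and 2.46). Saa3 passed whichever of the 10 arrays was left out, Slpi in 7 of 10 cases and Fabp4 in 1. Of 12 other alternatives Saa3 passed in 9 (highest adjusted p 0.708), Slpi in 7 and Fabp4 in 2. Gata6, the transcription factor that defines these cells, gave -0.52 ± 0.41 (SD, n = 4; adjusted p = 0.528). The list's median was 0.01 on TAM-b, -0.61 on TAM-2R, -1.54 on TAM-3 and -0.37 on TAM-8. It was highest on TAM-b, the array where Cd5l was nearest to 0. The list holds Saa3, Slpi and Serpinb2, which are among the genes most like Cd5l over these arrays (below). That part of the likeness is therefore built in, and a link was not tested.

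Of 12 measured general macrophage genes 8 lay below 0 in untreated TAM against PEC, with a list median of -0.53, and none passed. By array their median was -0.69 on TAM-b, 0.17 on TAM-2R, 0.08 on TAM-3 and -1 on TAM-8, and -1.39 and -1.34 on TAM1 and TAM7. Aif1 (2.76 ± 1.30), Fcgr1 (1.10 ± 0.52), Fcer1g (0.86 ± 0.36) and Tyrobp (0.17 ± 0.60) lay above 0 in untreated cells (SD, n = 4; limma, adjusted p = 0.0686, 0.232, 0.332 and 0.868). Of those below 0, Cd68 gave -1.74 ± 1.41, Lyz2 -1.55 ± 0.71 and Adgre1, the F4/80 antigen, -0.93 ± 1.10 (SD, n = 4; limma, adjusted p = 0.241, 0.232 and 0.478). With LPS the macrophage list had medians of 1.43 and 1.33 on PEC1 and PEC2, and -1.89 and 0.17 on TAM-trial and TAM-16, so like Fcna it was above 0 on both PEC arrays. Fibroblast and stromal markers had medians above 0 on all 4 untreated TAM arrays (0.26 to 1.71), and 1 of 13 rose, Igfbp4 (2.20; limma, adjusted p = 0.0412, past the test in 1 of the 10 fits that left out an array and 4 of 12 other alternatives). Neutrophil markers had a median of 0.88 over their 10 genes, with none past the test. Markers of monocyte-derived macrophages mostly had means above 0 in untreated TAM against PEC (9 of 12, median 0.23), but the arrays were split. Their median was 0.91 on TAM-b and 0.88 on TAM-8, and -0.37 on TAM-2R and -0.42 on TAM-3. Over all features limma called 0.337% lower in this comparison. Of the monocyte-derived macrophage list 1 of 12 fell, Retnla (-5.06; limma, adjusted p = 0.0015), which passed whichever of the 10 arrays was left out and in 7 of 12 other alternatives (highest adjusted p 0.711). No marker of mast, endothelial, epithelial, erythroid, plasma, B, NK or T cells, or of red pulp and liver macrophages, passed in any comparison. All marker lists were chosen with earlier results of these data known, so their calls are no separate evidence of cell type. The part of cell makeup in the values of Fcna and Cd5l was not tested.

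Over the 10 arrays Fcna and Cd5l followed each other with a Pearson r of 0.896 and a Spearman rho of 0.915, given as a description because the arrays share conditions and 6 of them set TAM against PEC. Among 6794 other named genes, Cd5l ranked 35 by its r with Fcna, and Fcna ranked 8 by its r with Cd5l. The genes most like Fcna by r were Retnla (0.98), which encodes a secreted resistin-like protein of alternatively activated macrophages, Slpi (0.977), Pigw (0.968), Tle5 (0.958) and Serpinb2 (0.95). By the smallest root mean square difference they were Retnla (0.62 log2 units), Slpi (1.21), the lipoprotein lipase gene Lpl (1.54), the phospholipid transfer gene Pltp (1.61) and Cd5l (1.68). Retnla tracks Fcna in all 4 comparisons, with means of -5.06, -4.14, 1.76 and -1.01 against -5.23, -5.00, 1.65 and -0.93.

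Cd5l was most like Tle5 (r = 0.959), Cd24a (0.95), Slpi (0.934), Retnla (0.931) and Saa3 (0.915). By root mean square difference the nearest were the syndecan gene Sdc1 (1.09 log2 units), Tle5 (1.13), the coagulation factor gene F7 (1.15), Serpinb2 (1.18) and Slpi (1.19). The lowest r was that of the cell division gene Birc5 with Cd5l (-0.957) and of the Riken gene 1110069O07Rik with Fcna (-0.966). The lists depend on the measure. Of the 5 genes highest by r, 2 were also among the 5 highest by rho for Fcna and 1 for Cd5l.

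**Figure D5:**
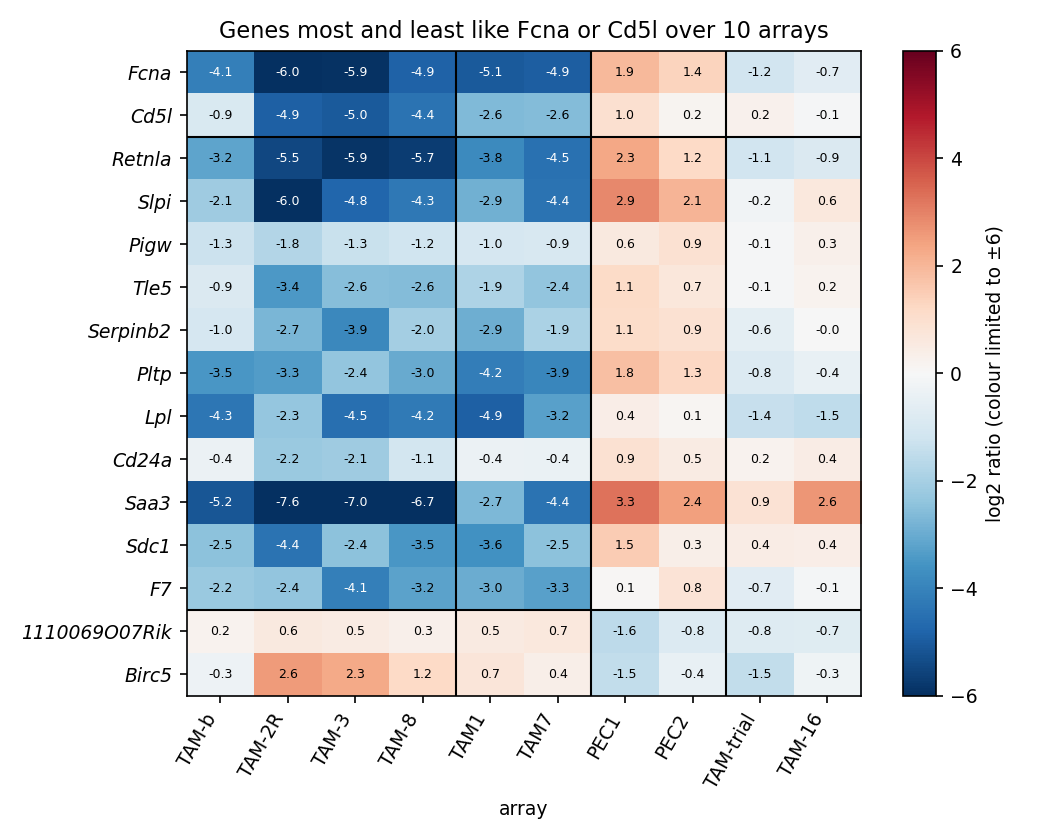
Log2 ratio on each of the 10 arrays of Fcna, Cd5l and the genes most like either of them, with the gene of lowest r for each in the last rows; colour runs from blue (lower) to red (higher). Retnla and Slpi are lower on all 6 TAM against PEC arrays and higher on PEC1 and PEC2, as Fcna is.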

How the data were processed

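Two-colour cDNA arrays measured total RNA of PEC and TAM on 10 arrays. The deposited values are log ratios, 1 for each feature of an array, and were read as log2. How the authors analysed the images, corrected background and normalized, and which dyes and log base they used, is not given in the sources used here. Only ratios were used, so spot brightness could not be judged, and precision is limited by the number of arrays. TAM-2R and TAM1 were multiplied by -1. Features of 1 gene were averaged (631 genes had over 1; Fcna and Cd5l had 1 each), and 1627 features without a symbol and 483 with several stayed unnamed, leaving 8905 genes and features. Of the features, 7395 matched RefSeq by Entrez ID.

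limma 3.58.1 (R 4.3.3; lmFit, eBayes) was fitted to all 10 arrays with 4 comparison means, 6 residual degrees of freedom and Benjamini-Hochberg adjustment over 8905, threshold 0.05, two-sided. It was tested on simulated data. Promoter windows were searched with Python 3.11.15 and figures drawn with matplotlib 3.10.9.

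The members and lists were chosen with earlier results of these data known. Named genes were the pair, listed and marker genes past the test, a fixed set of relatives whatever their values (part of it is not reported here), and, for each member, the 5 genes highest by r, the 5 nearest by root mean square difference and the lowest by r; Mfge8, Abca1, Abcg1, Gata6, Cd68, Lyz2, Adgre1, Aif1, Fcgr1, Fcer1g and Tyrobp were added after their values were seen. Alternatives were scaling, centring, no turning, dye terms, loop fits, print, the samples in the fit, the variance prior, each array left out and, chosen after seeing the data, the place of a feature.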

Additional observations from a re-analysis of the deposited data

Results flagged for a closer look

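In a group of 4 arrays, 1 value was called far from the rest when its gap to the nearest other, over the whole range, exceeded Dixon's 95% critical value; chance does this for about 1 in 20 genes. Of 31 genes examined in untreated TAM against PEC, 4 had such a value. The 31 include genes named for their likeness to Fcna or Cd5l over these same arrays, Retnla and Lpl among them. The count therefore cannot be set against that rate, and the share over all features was not computed. Cd5l was at -0.93 on TAM-b, with the other arrays between -5.05 and -4.44. Retnla was at -3.18 and Lgals3bp at 0.04 on the same array, and Lpl at -2.31 on TAM-2R.

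Fcna had a response to LPS above 0 on both PEC arrays and below 0 on both TAM arrays, a difference (TAM minus PEC) of -2.57 (limma, adjusted p = 0.719). The TAM part depended on the processing: with place removed, Fcna was at -0.01 on TAM-trial and -0.11 on TAM-16. In the loop fit its TAM response was -0.13 and the difference -0.97. Opposite directions on all 4 arrays were seen for 1269 of 8905 features (14.3%). Further named genes with opposite directions, none past the test of the difference, were C1qb (-2.60), C1qc (-2.08), Cd163 (-0.88), Marco (-1.27), Retnla (-2.77), Serpinb2 (-1.33), Lpl (-1.73), Pltp (-2.16) and F7 (-0.85). Masp1 had the reverse pattern, lower with LPS in PEC and higher in TAM (0.79). Retnla, Serpinb2, Lpl, Pltp and F7 were named for their likeness to Fcna or Cd5l over these same arrays. Their shared direction is therefore no separate evidence.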

How the results depend on the processing

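Of 226 values of Fcna and Cd5l under alternative settings, 201 kept their direction and side of the threshold or moved by less than the spread between arrays. Many of these settings could not move a mean. Leaving out an array of another comparison, changing the variance prior or fitting a comparison's own arrays alone returns the same mean. No LPS response of the pair passed in the main fit either, so the count of 201 says little about how firm the values are. For Fcna in untreated TAM against PEC, scaling the arrays to one spread gave -4.25 and leaving TAM-2R unturned -2.21. In LPS-treated TAM against PEC, Fcna was -5.79 scaled, -4.87 with a dye term per print, -5.80 in the loop fit, -5.83 with a dye term added to it and -4.78 with place removed; left unturned, TAM1 and TAM7 cancelled (0.07). Cd5l gave -1.38 unturned in untreated cells, and in LPS-treated cells -3.03 scaled, -2.20 with a dye term per print, -3.10 in the loop fit, -3.15 with a dye term, -2.84 with place removed and 0.03 unturned. The small LPS responses of Cd5l changed sign: in PEC to -0.54 (dye term per print) and -0.31 (loop with dye term), in TAM to -0.36 (dye term), -0.20 (dye term per print) and -0.07 (print v3p6 alone), and their difference to 0.34 (dye term per print), 0.49 (loop), 0.59 (loop with dye term) and 0.06 (place removed). Over the alternatives other than leaving out an array, the PEC response of Fcna ranged from 0.63 to 1.77 (adjusted p 0.202 to 1), its TAM response from -1.28 to -0.06 and the difference from -2.64 to -0.92.

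Leaving out each array in turn gave, for Fcna, -5.62 to -4.97 (untreated), -5.06 to -4.93 (both LPS), 1.35 to 1.94 (PEC), -1.17 to -0.69 (TAM) and -2.87 to -2.28 (difference), and for Cd5l -4.80 to -3.43, -2.64 to -2.58, 0.16 to 0.97, -0.07 to 0.24 (below 0 without TAM-trial) and -0.89 to -0.07. Where 1 array was left in a comparison, it was assumed to vary like the others. The 2 calls among listed genes in untreated TAM against PEC became 0 scaled, unturned, with either dye term and without any 1 array, 1 when centred and 4 in the loop fit; in LPS-treated TAM against PEC the count went from 0 to 3 scaled and 4 in the loop fit, and in PEC with LPS from 0 to 1 in the loop fit. The cause was not tested. Calls over all features in untreated TAM against PEC went from 41 to 11 scaled, 17 with a dye term, 4 with one per print, 26 in the loop fit with a dye term, 2 on the arrays of the comparison alone and 0 unturned, on print v3p6 alone or with a variance trend and robust prior; those in LPS-treated TAM against PEC went from 6 to 91 scaled, 137 and 131 in the loop fits and 14 with print as a block (correlation -0.029). No paired analysis was possible because the comparisons share fewer than 2 replicate numbers given in the labels. Features were not taken singly, since Fcna and Cd5l have 1 each. Print v9p2 alone holds no array of LPS-treated against untreated PEC and leaves no residual degree of freedom.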
